A study of Mus musculus with 6 samples.

Results

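The interleukin 6 (IL-6) family was followed through the cell types of the mouse proximal pulmonary artery (PA) by 10 genes, chosen by symbol out of the 53647 genes in the files. They were the ligands Il6, Lif and Osm, the ligand-binding receptors Il6ra and Il11ra1, the shared receptor chain Il6st with its partners Lifr and Osmr, the transcription factor Stat3 and the feedback inhibitor Socs3. Every gene was detected.

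Most ligands of this family bind receptors that contain the signal-transducing chain gp130, the product of Il6st. IL-6 first binds the IL-6 receptor (Il6ra) and interleukin 11 binds Il11ra1 before a gp130 pair is joined, whereas leukemia inhibitory factor (Lif) and oncostatin M (Osm) pair gp130 with Lifr or Osmr. JAK kinases on the receptor then phosphorylate STAT3, and STAT3 induces Socs3, which shuts the receptor off. IL-6 is studied in pulmonary hypertension and is a common component of the secretions of senescent cells.

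Single cell RNA sequencing was done on 6 libraries from wild-type C57BL/6J mice that received no treatment. The young group held 2 libraries of 3 months, from a male and from a female, and the old group 4 libraries, of 20, 24 and 27 months (described as males) and of 28 months (a female). The titles give the sex of the 27-month and 28-month mice and of the young female, and the study's text that of the others. The tissue was chopped and digested with collagenase and elastase, and airway epithelium, mesothelial and lymphoid cells were among the cells recovered. Unique molecular identifiers (UMIs, each marking a captured RNA molecule) were counted per gene and cell.

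Libraries held 6355125 to 50436562 UMIs, and the median kept barcode held 801.5 to 8150 UMIs, with the 27-month and 28-month libraries deepest. The young male, young female and 24-month libraries shared 131 to 215 cell barcodes by pair, where any other pair shared at most 4. The 20-month library, described as male, had 694 UMIs per 1000000 (CPM) of Xist, 60.2 CPM of Ddx3y and 0.576 CPM of Eif2s3y, and the 27-month male had 1.53, 192 and 60.6 CPM. The young and 28-month females had 609 and 850 CPM of Xist and 5.17 and 0 CPM of Eif2s3y. The young and 24-month males had 51.5 and 47.7 CPM, and 37.4 and 60.2 CPM. By Xist and Eif2s3y the 20-month library thus lay with the females, against the sex in the study's text, and by Ddx3y it lay between the sexes. After filtering, 15311 cells remained, in 31 clusters that were made without the 10 genes. Clusters were named from markers. In 11 of 13 named types every marker was over 2-fold higher than in the other cells, with 7 of 8 in B cells and 9 of 10 in monocytes or dendritic cells. The same markers had named the clusters, so this is not a separate check. Of the cells, 10.3% in young and 0.205% in old libraries stayed unnamed. Levels below are CPM of the summed UMIs of a type in a library with at least 10 of its cells. They are compared between types and libraries, not between genes. As a background, CPM was also taken in barcodes of 1 to 50 UMIs, which hold free RNA.

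Where each gene was expressed was tested by setting each of 9 types against the mean of the other types with libraries as blocks (edgeR quasi-likelihood test over 9989 genes, Benjamini-Hochberg adjusted p under 0.05). In all, 49 of 81 gene-type contrasts of 9 members passed, 27 above and 22 below the other types. Genes were kept for this test by edgeR's filterByExpr with the cell type as group. Lif was too sparse to pass. Il6 and Osm, near 0 in most types, passed through the types where they were high. Their calls above or below the other types are therefore descriptive. Members above the other types numbered 5 of 9 in ECs (blood endothelial cells, background 20.7% of all genes), 5 of 9 in FBs (fibroblasts, 20.1%) and 5 of 9 in macrophages (MΦs, 23.5%). They numbered 4 of 9 in monocytes or dendritic cells (21.6%), 3 in mesothelial cells (19.7%), 2 in smooth muscle cells (SMCs, 21.5%), 2 in airway epithelium (26.1%), 1 in B cells (26.5%) and 0 in T, NK or innate lymphoid cells (14%). Members below the other types numbered 5 in B cells (20.3%), 4 in T cells (16.6%), 3 each in SMCs (20.5%), airway epithelium (14.3%) and monocytes or dendritic cells (16.3%), 2 in MΦs (13.7%), 1 each in ECs (12.9%) and mesothelial cells (17.3%), and 0 in FBs (15.7%). The counts above include Il6 in FBs, and Il6 and Osm in MΦs and in monocytes or dendritic cells. The counts below include Osm in SMCs (2 UMIs) and in airway epithelium (1 UMI). In these types the counts cannot be set against the share of all genes. Other calls below also rested on few UMIs. Osmr held 6 UMIs in B cells, 9 in T cells, 6 in MΦs and 11 in monocytes or dendritic cells. Lifr held 27 UMIs in T cells, with 4 of 5 libraries at 0. The p-values take the clusters as given.

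**Figure D1:**
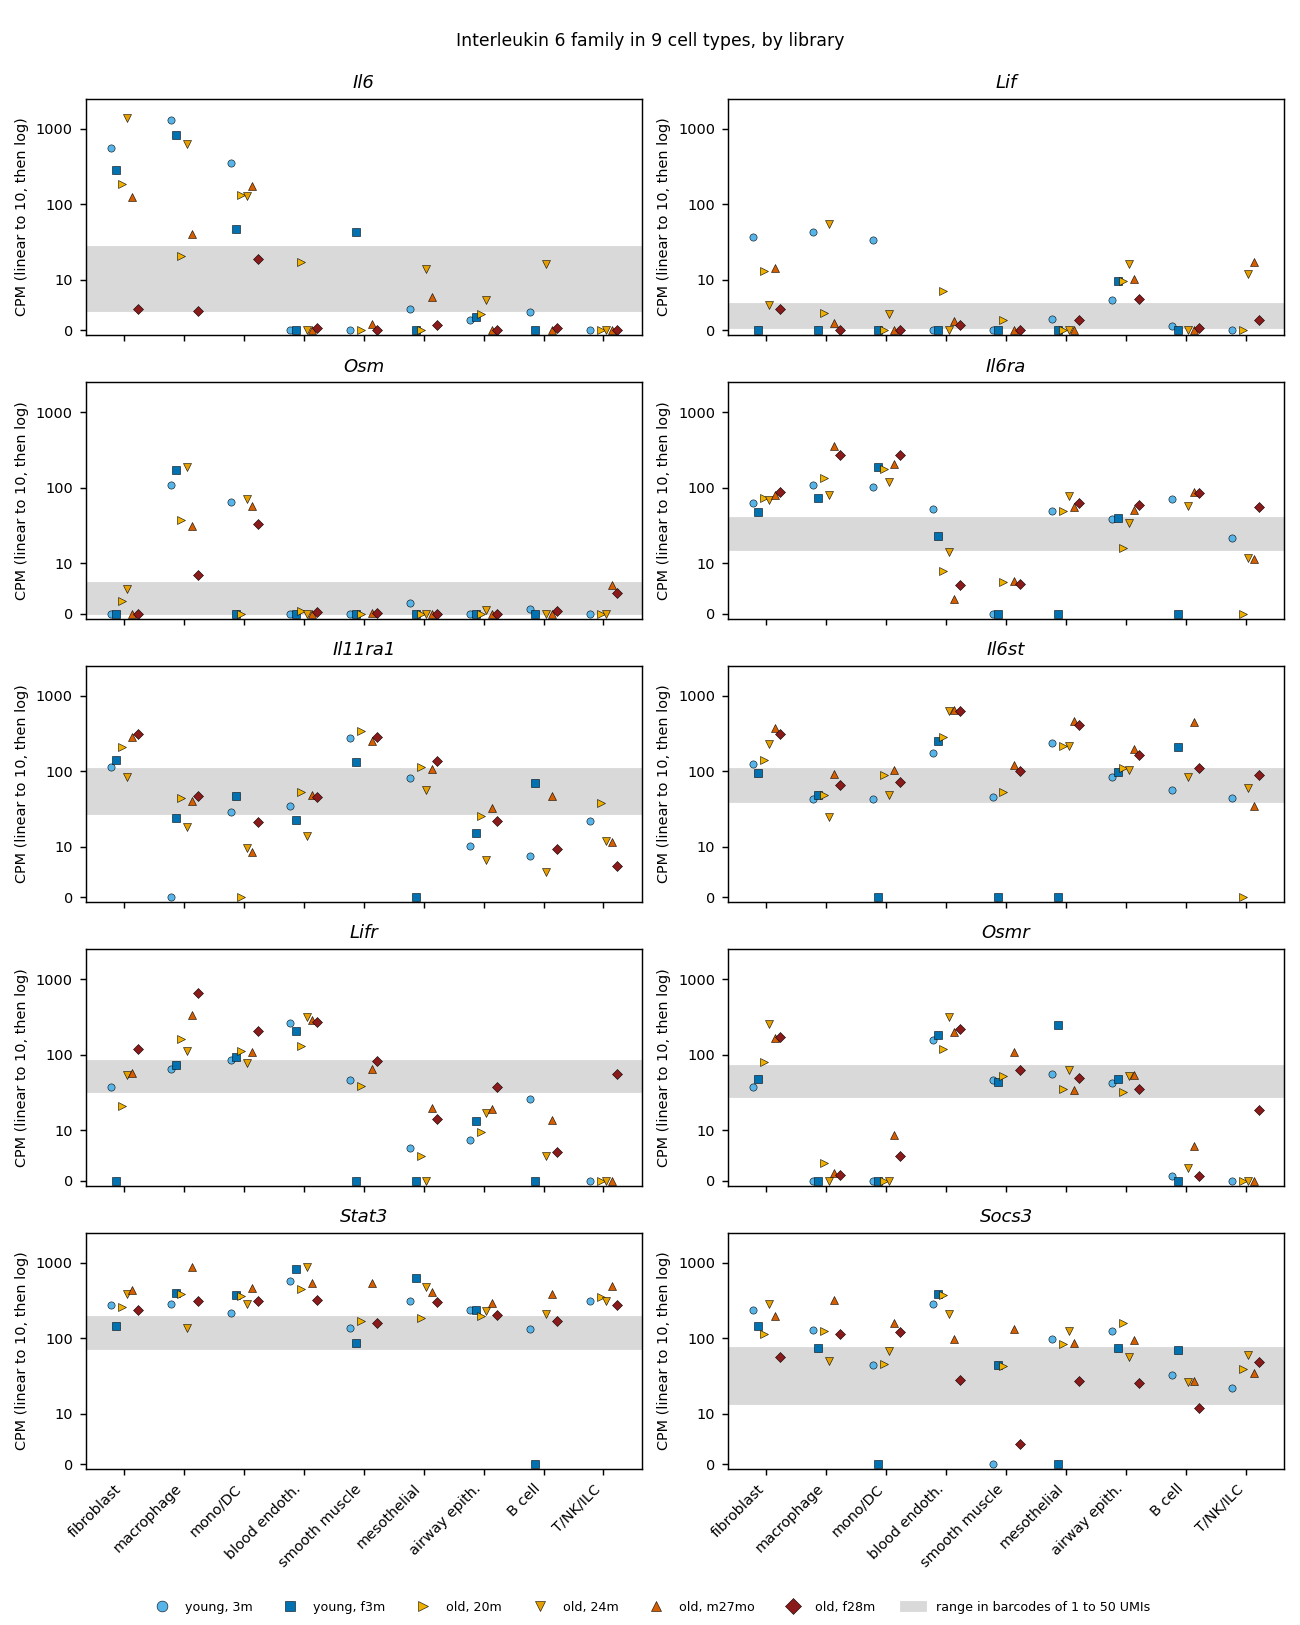
Level of each of the 10 genes (y axis, CPM, linear to 10 and logarithmic above) in 9 cell types (x axis), with a point for each library that had at least 10 cells of the type and a grey band for the range in barcodes of 1 to 50 UMIs. Il6 reached 1390 CPM in fibroblasts and 1302 CPM in macrophages, and Il6st was highest by median in blood endothelial cells, at 455 CPM.

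**Figure D2:**
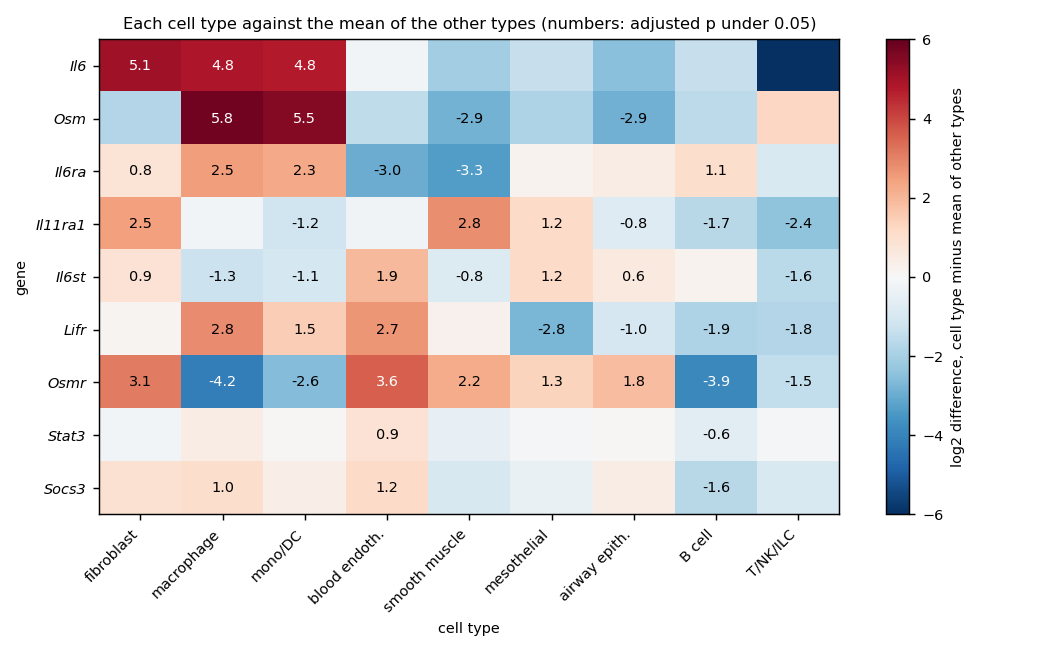
Log2 difference of each cell type (x axis) from the mean of the other types for the 9 tested members (y axis), with the value written where the adjusted p was under 0.05 (edgeR). Osm in macrophages, at 5.77, is the highest written value and Osmr in macrophages, at -4.16, the lowest. Values of Il6 and Osm are descriptive, as both passed the gene filter through the types where they were high.

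Il6 lies on chromosome 5 at 30013114 to 30019981 on the forward strand (GENCODE M21, GRCm38). The 250 bases before its start, chr5:30012864-30013113 on the forward strand (RefSeq, GRCm38.p6), are shown because Il6 RNA ranged from 4.18 to 1390 CPM between libraries within FBs. The capitals mark a match to the NF-kB letters GGNNTTTCC, searched on both strands, that begins 43 bases before the start.
Il6: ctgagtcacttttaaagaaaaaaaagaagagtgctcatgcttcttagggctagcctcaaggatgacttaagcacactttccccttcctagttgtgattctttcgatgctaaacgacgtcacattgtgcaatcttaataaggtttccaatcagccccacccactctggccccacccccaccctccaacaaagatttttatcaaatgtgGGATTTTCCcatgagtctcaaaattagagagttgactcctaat
This motif occurred in 5.82% of 32851 promoter windows of 300 bases, and among the members in that of Il6 alone. The AP-1 motif TGANTCA (7.81% of windows, both strands) occurred in the windows of Il6, Lif and Osmr, and the STAT motif TTCNNNGAA (8.3%), which is its own reverse complement, in that of Socs3 among the 9 members that have a window.

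Il6 RNA was found mainly in FBs, MΦs and monocytes or dendritic cells. Elsewhere, 1 lymphatic EC of 25 at 27 months held 9 UMIs (57 CPM for the type), and B cell cluster 20 held 9 UMIs at 24 months (135 CPM, 53 cells). In FBs its level was 563 CPM in the young male, 287 in the young female, 185 at 20 months, 1390 at 24 months, 127 at 27 months and 4.18 at 28 months. The 24-month library was highest and the 28-month library lowest, and young values lay inside the old range. MΦs held 1302 CPM in the young male, 831 in the young female, 20.6 at 20 months, 624 at 24 months, 40.7 at 27 months and 3.86 at 28 months. Here both young libraries were above all 4 old ones. Monocytes or dendritic cells held 349 CPM in the young male, 46.8 in the young female (1 UMI), 135 at 20 months, 130 at 24 months, 174 at 27 months and 19.1 at 28 months. Free RNA held 3.74 to 27.4 CPM of Il6, and FBs and monocytes or dendritic cells were above the free RNA of their own library in 6 of 6 libraries and MΦs in 5 of 6. The 28-month FBs and MΦs were barely above their library's 3.74 CPM. The line between MΦs and monocytes or dendritic cells depended on the clustering. Of young male cells, cluster 5 (monocytes or dendritic cells) held 404. At resolution 2.0 a cluster of that type held 246 and a MΦ cluster led by Marco held 168. Il6 levels given here are those of the main clustering.

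Against the mean of the other types, Il6 was higher by 5.09 on the log2 scale in FBs (SE 0.474, edgeR). It was higher by 4.84 in MΦs (SE 0.527) and by 4.76 in monocytes or dendritic cells (SE 0.56). These are fitted values against types near 0 and depend on the prior count. Il6 passed the gene filter through the types where it was high, so they are descriptive. By median the order ran MΦs (332 CPM), FBs (236), monocytes or dendritic cells (132) and mesothelial cells (2.64). The upper neighbours did not differ beyond their spread (MΦs above FBs in 2 of 6 libraries, exact two-sided sign-flip test, p = 0.438; FBs above monocytes or dendritic cells in 4 of 6, p = 0.312). Monocytes or dendritic cells were above mesothelial cells in 6 of 6 libraries, with a mean log2 difference of 4.95 ± 1.57 (SD; exact sign-flip p = 0.0312, the smallest that 6 libraries allow, and adjusted p = 0.417 over the 80 neighbouring pairs of all members). At most 6 libraries entered any of these pairs, so no adjusted p could fall under 0.05. The adjusted values of neighbouring pairs, here and below, thus cannot decide whether the types differ. No Il6 UMI was counted in 445 T, NK or innate lymphoid cells pooled over libraries. By an approximate 95% limit for counting error alone, this allows a share of up to 0.674% of cells with a UMI. SMCs of the 27-month library, with 2342 cells, held 28 Il6 UMIs, or 1.29 CPM, below the 4.2 CPM in that library's free RNA.

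Il6 UMIs were unevenly spread over cells. In the 24-month library 83 of 216 FBs had an Il6 UMI (38.4%, exact 95% binomial interval 31.9% to 45.3%), against 0 of 201 ECs (up to 1.82%), at median depths of 846 and 646 UMIs per cell. In the 27-month library 369 Il6 UMIs came from 70 of 494 FBs, and a single FB held 45 of them. The 58 UMIs in 27-month monocytes or dendritic cells came from 9 of 44 cells, with up to 25 in a cell. These intervals cover counting error only.

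FBs formed 2 clusters. Cluster 1 was led by Abca8a, Svep1 and Opcml, and held 463 FBs of the 27-month and 755 of the 28-month library. Cluster 11 was led by the neutrophil chemokine Cxcl1, the pentraxin Ptx3 and Il6 itself, and held most FBs of the other 4 libraries (127 at 20 months, 202 at 24 months, 84 young male, 29 young female). Where a library had cells in both, Il6 was 127 CPM in cluster 1 and 89.3 in cluster 11 at 27 months, 4.23 and 0 at 28 months, and 0 and 1511 at 24 months (14 and 202 cells). The clusters thus had no common order in the 3 libraries, and each had an arm of few cells or UMIs (31 cells and 3 Il6 UMIs in cluster 11 at 27 months).

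Osm, made by myeloid cells, lies on chromosome 11 at 4236420 to 4241026, 16.5 kb before Lif at 4257557 to 4272514, both on the forward strand. In MΦs Osm was 109 CPM in the young male, 171 in the young female, 37.7 at 20 months, 191 at 24 months, 31.4 at 27 months and 7.72 at 28 months. Monocytes or dendritic cells held 65.4 CPM in the young male, 71.4 at 24 months, 56.9 at 27 months and 33.3 at 28 months, and 0 in the young female and the 20-month library, where the type had 29 and 17 cells. The fitted difference from the mean of the other types was 5.77 in MΦs (log2, SE 0.389, edgeR) and 5.49 in monocytes or dendritic cells (SE 0.381). Osm passed the gene filter through the types where it was high, so these values are descriptive. Neutrophils, in 2 libraries, held 218 CPM at 28 months (62 UMIs, in 30 of 73 cells) and 244 at 24 months (4 UMIs). Free RNA held 0 to 6.01 CPM, and outside these 3 types no library exceeded 5.77 CPM. Osm UMIs thus came almost wholly from myeloid cells.

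Lif was the sparsest ligand. Its highest median was in airway epithelium (9.73 CPM, range 6.06 to 16.3), then in FBs (8.98 CPM, range 0 to 37.5), and free RNA held 0.524 to 5.25 CPM. Airway epithelium was above FBs in 3 of 6 libraries (exact sign-flip p = 0.656). Its highest level was 55.6 CPM in MΦs of the 24-month library, on 9 UMIs. The young male had 37.5 CPM in FBs, 43.4 in MΦs and 33.9 in monocytes or dendritic cells, on 3, 2 and 14 UMIs.

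Il6st, on chromosome 13 at 112464070 to 112510086 (forward strand), was detected in every type. ECs held 175 CPM in the young male, 251 in the young female, 283 at 20 months, 626 at 24 months, 652 at 27 months and 638 at 28 months. The 3 oldest libraries lay close together, well above the other 3. Mesothelial cells held 237 CPM in the young male, 0 in the young female (10 cells), 219, 217, 470 and 409 CPM at 20, 24, 27 and 28 months. FBs held 125 CPM in the young male, 95.6 in the young female, 143, 233, 372 and 313 CPM at the same ages.

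By median, Il6st ran from ECs (455 CPM) over mesothelial cells (228), FBs (188), B cells (112), airway epithelium (107), monocytes or dendritic cells (60.4), SMCs (52.9) and MΦs (48.5) to T, NK or innate lymphoid cells (43.9). Lymphatic ECs, measured in 2 libraries, held 798 CPM at 27 months and 495 at 28 months. Erythroid cells held 50 CPM at 24 months (1 UMI) and 64.8 at 28 months, and neutrophils 0 and 28.1. Both types were above their own library's free RNA in 0 of 2 libraries, so their Il6st could not be told from background. Free RNA held 39 to 107 CPM, and each library was above its own free RNA in ECs, FBs and airway epithelium (6 of 6). MΦs and monocytes or dendritic cells were above it in 3 of 6 libraries, SMCs in 2 of 5 and T cells in 2 of 5, so Il6st RNA of these types could not be told from background in the remaining libraries.

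The 27-month library had the highest Il6st in 8 of 9 types. ECs were above the mean of the other types by 1.93 (log2, SE 0.191, adjusted p = 6.02e-13 by edgeR), mesothelial cells by 1.17 (SE 0.205, 3.81e-06), FBs by 0.85 (SE 0.212, 0.000873) and airway epithelium by 0.60 (SE 0.212, 0.0192). T cells had a difference of -1.60 (SE 0.325, adjusted p = 8.65e-05), MΦs of -1.27 (SE 0.274, 0.000127), monocytes or dendritic cells of -1.07 (SE 0.269, 0.000991) and SMCs of -0.84 (SE 0.281, 0.0121). ECs were above mesothelial cells in 5 of 6 libraries (exact sign-flip p = 0.0938) and mesothelial cells above FBs in 4 of 6 (p = 0.969), so the head of the order was not separated by neighbours. The SMC call was lost when any of 4 libraries was left out in turn (20-month, 27-month, 28-month or young male), and the airway call without the young female.

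Il6ra, on chromosome 3 at 89864059 to 89913196 (reverse strand), was highest in myeloid cells. Monocytes or dendritic cells held 102 CPM in the young male, 187 in the young female, 179, 120, 207 and 270 CPM at 20, 24, 27 and 28 months. MΦs held 109 and 73.3 CPM in the young male and female, and 137, 80.3, 358 and 276 CPM in the old libraries in order of age. MΦs were above the other types by 2.49 (log2, SE 0.215, adjusted p = 4.12e-15 by edgeR), monocytes or dendritic cells by 2.26 (SE 0.227, 9.74e-13), B cells by 1.05 (SE 0.265, 0.000778) and FBs by 0.81 (SE 0.255, 0.00889). The FB call was lost with cells thinned to 500 UMIs (0.38, adjusted p = 0.392) and without the library block. Both myeloid types traded places between libraries (3 of 6, exact sign-flip p = 0.5). ECs and SMCs were at the other end, with differences of -2.98 (SE 0.396, adjusted p = 5.57e-09) and -3.34 (SE 0.412, 6.66e-10). SMCs held 5.81 to 6.52 CPM in the 3 old libraries measured and 0 in both young ones, below the free RNA range of 15.2 to 40.4 CPM. ECs held 22.8 and 52.5 CPM in the young libraries, on 1 and 3 UMIs, and 2.83 to 14.1 CPM in the old.

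Il11ra1, on chromosome 4 at 41699989 to 41769474 (forward strand), was highest in SMCs and FBs. SMCs held 274 CPM in the young male (6 UMIs), 131 in the young female (3 UMIs), 340, 249 and 286 CPM at 20, 27 and 28 months. FBs held 113 and 143 CPM in the young male and female and 208, 84.4, 282 and 314 CPM in the old libraries in order of age. The difference from the other types was 2.80 in SMCs (log2, SE 0.206, adjusted p = 6.59e-18 by edgeR), 2.47 in FBs (SE 0.192, 6.23e-17) and 1.16 in mesothelial cells (SE 0.221, 1.76e-05). SMCs and FBs were not separated (SMCs above in 2 of 5 libraries, exact sign-flip p = 0.5, smallest possible 0.0625). FBs were above mesothelial cells in 6 of 6 libraries (exact sign-flip p = 0.0312, adjusted 0.417). Il11, the ligand of this receptor, was counted in only 83 UMIs over all types, with its highest median, 7.58 CPM, in FBs.

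Lifr and Osmr are neighbours on chromosome 15, Osmr at 6813577 to 6874969 on the reverse strand and Lifr at 7090614 to 7197489 on the forward strand, 216 kb apart. Osmr was 158 CPM in ECs of the young male, 182 in the young female, and 121, 317, 202 and 219 CPM in the old libraries in order of age. ECs were above FBs in 6 of 6 libraries, with a mean log2 difference of 0.91 ± 0.832 (SD; exact sign-flip p = 0.0312, adjusted 0.417). Osmr was above the other types in ECs by 3.6 (log2, SE 0.222, adjusted p = 3.42e-21 by edgeR), in FBs by 3.1 (SE 0.228, 5.78e-18), in SMCs by 2.24 (SE 0.272, 3.99e-10), in airway epithelium by 1.84 (SE 0.26, 2.2e-08) and in mesothelial cells by 1.32 (SE 0.288, 0.000156). The mean of the other types includes B cells, MΦs, T cells and monocytes or dendritic cells, with Osmr medians of 0 to 0.951 CPM. By median, SMCs (52.9 CPM), mesothelial cells (52.3) and airway epithelium (45.1) lay well below ECs (192) and FBs (123). Their differences above that mean thus depend on types near 0. Free RNA held 27.3 to 70.2 CPM of Osmr, and airway epithelium was above that of its own library in 4 of 6 libraries, SMCs in 4 of 5 and mesothelial cells in 5 of 6. Osmr was nearly missing from MΦs, with 0 to 3.43 CPM and 6 UMIs in all, with a difference there of -4.16 (log2, SE 0.539, adjusted p = 2.77e-09), a call lost without the 28-month library. Lymphatic ECs held 323 CPM at 27 months and 226 at 28 months.

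Among the tested types Lifr had its highest medians in ECs and MΦs. Monocytes or dendritic cells held 77.8 to 207 CPM, and lymphatic ECs, measured in 2 libraries, 203 to 260 CPM. ECs held 263 CPM in the young male, 205 in the young female, and 130, 317, 292 and 275 CPM in the old libraries in order of age. MΦs held 65.1 and 73.3 CPM in the young male and female (3 UMIs each) and 161, 111, 338 and 661 CPM in the old. The fitted difference from the other types was 2.82 in MΦs (log2, SE 0.258, adjusted p = 1.96e-13 by edgeR), 2.67 in ECs (SE 0.267, 3.32e-12) and 1.46 in monocytes or dendritic cells (SE 0.303, 9.05e-05). ECs were above MΦs in 3 of 6 libraries (exact sign-flip p = 0.375). Mesothelial cells, which were high in Il6st, had a Lifr difference of -2.75 (SE 0.467, adjusted p = 2.82e-06), a call lost without the 28-month library.

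MΦs differed by cluster in the same library. Cluster 7 was led by Ccl8, Cd209f and the scavenger receptor Mrc1, cluster 24 by Prg4, Saa3 and Alox15, and cluster 26 held MΦs of the 20-month library only. In the 24-month library Lifr was 710 CPM in cluster 7 (16 cells, 11 UMIs) and 47.8 CPM in cluster 24 (91 cells, 7 UMIs). In the young male Lifr was 267 CPM in cluster 7 (10 cells, 2 UMIs) and 25.9 CPM in cluster 24 (39 cells, 1 UMI). Il6 lay the other way. Il6 was 676 CPM in cluster 24 and 129 in cluster 7 at 24 months (99 and 2 UMIs), and 1477 and 400 CPM in the young male (57 and 3 UMIs). Osm was 212 and 130 CPM in cluster 24 of these libraries (31 and 5 UMIs). No Osm UMI was counted in the 16 and 10 cells of their cluster 7, too few cells to tell the clusters apart for Osm. Only 2 libraries held at least 10 cells of both clusters, so no test was made.

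**Figure D3:**
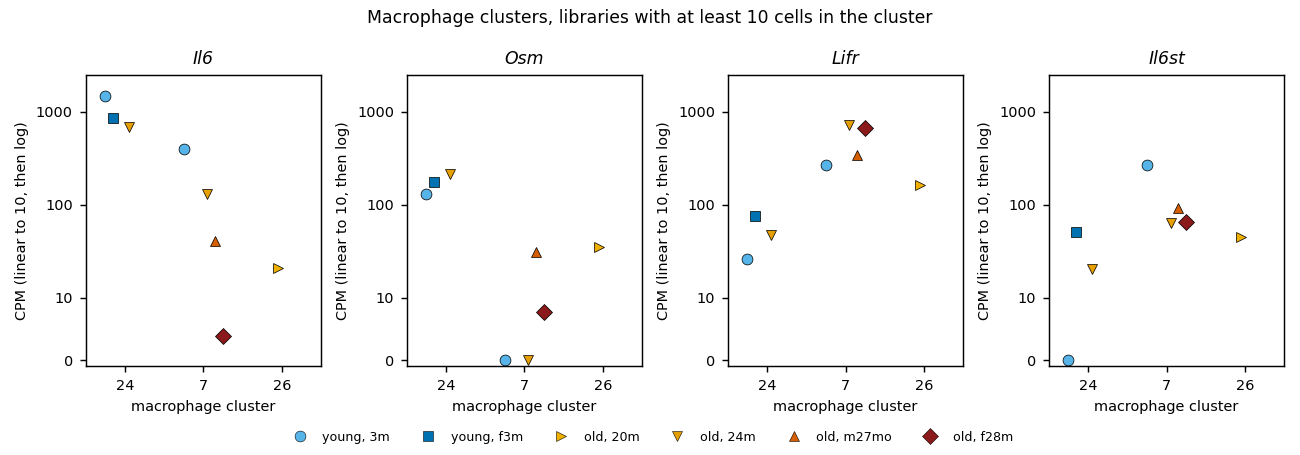
Il6, Osm, Lifr and Il6st (panels; y axis, CPM, linear to 10 and logarithmic above) in 3 macrophage clusters (x axis), with a point for each library with at least 10 cells in the cluster. In cluster 7 Lifr sits at 267 to 710 CPM and in cluster 24 at 25.9 to 75.5 CPM.

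Stat3, on chromosome 11 at 100885098 to 100939540 (reverse strand), was found in every type. Among the 9 tested types medians ran from 161 CPM in SMCs to 555 CPM in ECs, and of the types in 2 libraries neutrophils held a median of 596 CPM and erythroid cells 136. ECs were above mesothelial cells, the next type, in 6 of 6 libraries (mean log2 difference 0.66 ± 0.436 SD, exact sign-flip p = 0.0312, adjusted 0.417). ECs were above the other types by 0.89 (log2, SE 0.214, adjusted p = 0.000617 by edgeR) and B cells had a difference of -0.63 (SE 0.26, 0.0417), a call lost without the young male, the 27-month or the 28-month library. Within SMCs, Stat3 was 545 CPM at 27 months but 167 at 20 months, 161 at 28 months, 137 in the young male and 87.5 in the young female. The 27-month library had the highest Stat3 in 7 of 9 types.

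Socs3, on chromosome 11 at 117966079 to 117970047 (reverse strand), had a match to the STAT motif TTCNNNGAA 154 bases before its RefSeq start. The span given is that of GENCODE, which starts further upstream, and the match lies inside it. The match, in capitals, is shown with 10 bases on each side, chr11:117969502-117969530 on the reverse strand of GRCm38.p6, since Socs3 is the textbook STAT3 target.
Socs3: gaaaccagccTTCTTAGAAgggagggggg
ECs held 280 CPM in the young male, 388 in the young female, and 377, 211, 97.2 and 28 CPM at 20, 24, 27 and 28 months. ECs were above the other types by 1.16 (log2, SE 0.406, adjusted p = 0.0234 by edgeR) and MΦs by 1.03 (SE 0.38, 0.0283), and B cells had a difference of -1.65 (SE 0.544, 0.0115). The EC call was lost without the 20-month library or without the young female, and the MΦ call without any of 4 libraries in turn (20-month, 27-month, 28-month or young male).

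Within a type, Socs3 differed between libraries. SMCs held 131 CPM at 27 months (2853 UMIs) and 3.98 at 28 months (24 UMIs), and Socs3 was lower at 28 months than at 27 months in 8 of 9 types. Immediate early genes, which respond to tissue dissociation, differed between the same libraries. Their summed level over 15 genes was 14950 CPM in 27-month SMCs and 2567 in 28-month SMCs, and none of the 15 was at 0 in either. In ECs, where Socs3 was lowest at 28 months and next lowest at 27 months, so was the sum, at 3139 and 8822 CPM. In MΦs Socs3 was instead lowest at 24 months, at 49.4 CPM. In ECs the sum ran from 23624 to 27409 CPM in young and from 3139 to 21179 in old libraries, in FBs from 15624 to 16114 and from 2509 to 17429, and in MΦs from 19750 to 19874 and from 3352 to 16630. For Il6, the library with the lowest sum in FBs and in MΦs, that of 28 months, was also the lowest. In FBs the 24-month library had both the highest sum and the highest Il6. In MΦs the order differed. The 20-month library had the highest sum of the old libraries, 16630 CPM, but 20.6 CPM of Il6. The 24-month library had a sum of 13010 CPM and 624 CPM of Il6. The part of dissociation in these Il6 and Socs3 levels was not tested.

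**Figure D4:**
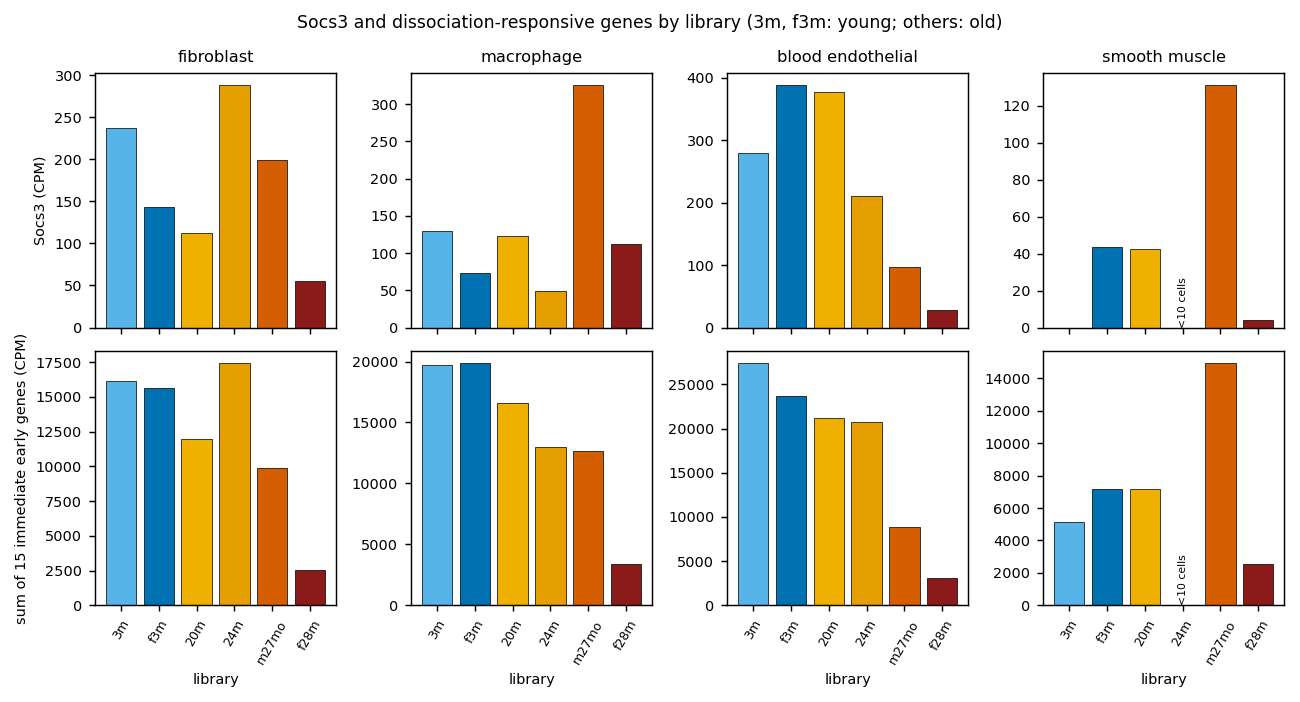
Socs3 (upper row, CPM) and the sum of 15 immediate early genes (lower row, CPM) in 4 cell types, with a bar for each library (x axis) and no bar where a library had under 10 cells. In smooth muscle the 27-month library stands at 131 CPM of Socs3 and the 28-month library at 3.98 CPM.

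Whether the family differed between old and young PAs was tested per type (edgeR, on genes counted in more than 5% of a type's cells in 3 or more libraries). Smooth muscle and monocytes or dendritic cells held clusters with more markers of another class than of their own among their leading genes. By this rule, cluster 17 (SMCs) and cluster 5 (monocytes or dendritic cells) stood in for them. By all markers the flagged clusters were of their named class. SMC clusters 0 and 4 had 100% of SMC markers raised, against 62.5% of pericyte and 14.3% of cardiomyocyte markers. Cluster 19 had 90% of monocyte or dendritic cell markers raised, against 50% of MΦ markers. Cluster 17 held 162 of 2342 SMCs at 27 months and 99 of 942 at 28 months. Its median depth was 970 UMIs per cell, where all SMCs of these libraries had medians of 9339 and 6599 UMIs. The SMC result thus covers a small, shallow part of the old SMCs. Among 44 member-type tests in 8 fits, 0 passed an adjusted p of 0.05, and 4 had an unadjusted p under 0.05, where 6.37% of all gene tests did (5.91% in ECs, 6.24% in FBs and 8.07% in MΦs). Adjusted p ran from 0.608 to 1, and 31 fitted differences were higher and 13 lower in old. Over all genes, the tests called 0% in B cells, airway epithelium, ECs, MΦs and cluster 5, 0.0442% in FBs, 0.27% in mesothelial cells and 0.865% in cluster 17. DESeq2 also called 0 of 44.

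The 4 tests with an unadjusted p under 0.05 were of 3 receptor chains, each with a fitted value above 0 that did not pass the adjusted test. Il6st in ECs was 213 ± 53.6 CPM in young (SD, n = 2) and 550 ± 178 in old (SD, n = 4), a log2 difference of 1.40 (SE 0.546, adjusted p = 0.833 by edgeR). In FBs Il6st was 110 ± 20.8 and 265 ± 99.4 CPM, a difference of 1.20 (SE 0.568, adjusted p = 0.788). Osmr in FBs was 37.5 and 47.8 CPM in the young libraries, on 3 and 1 UMIs, and 80.6, 258, 166 and 171 CPM in the old, a difference of 2.07 (SE 0.752, adjusted p = 0.714). Lifr in MΦs had a difference of 2.24 (SE 0.857, adjusted p = 0.608), which was 0.93 with the barcode-sharing libraries as a covariate and 3.32 with stricter limits on UMIs and genes. The median over all genes tested was 0.174 in ECs, 0.2 in FBs and 0.291 in MΦs.

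**Figure D5:**
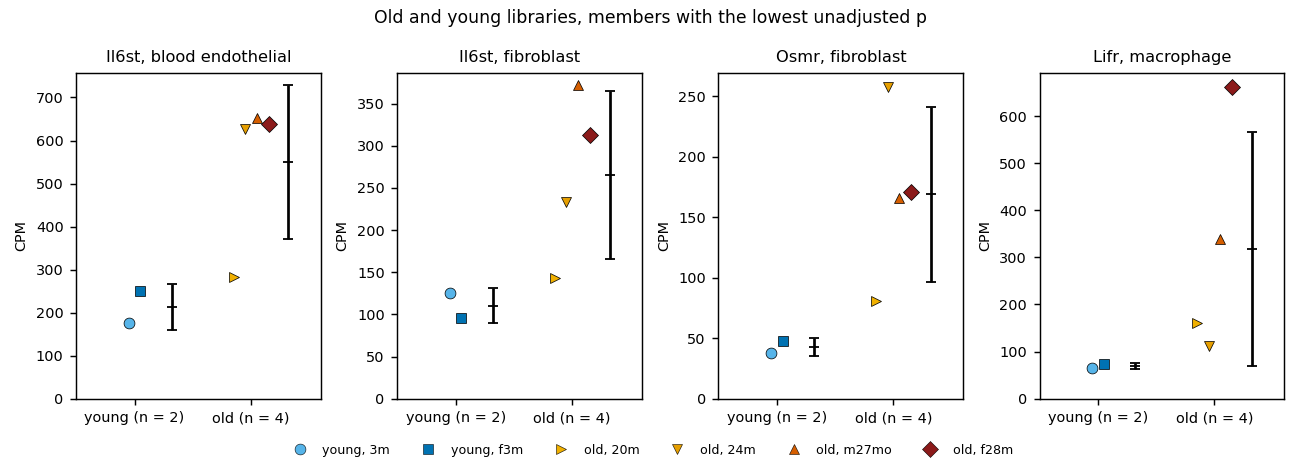
Il6st in blood endothelial cells and fibroblasts, Osmr in fibroblasts and Lifr in macrophages (y axis, CPM), with a point for each library and the mean ± SD beside the 2 young and 4 old libraries. No old library lies below a young one in these panels, and none of the 4 differences passed the adjusted test.

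Young and old libraries did not overlap for some members. All old libraries were above all young ones in 8 of the 44 tests and below in 1, Il6 in MΦs, and such gaps were frequent among all genes. In FBs they were above in 3 of 8 members (Il6ra, Il6st and Osmr, 17% of all genes), in ECs in 1 of 6 (Il6st, 12.2%) and in MΦs in 1 of 8 (Lifr, 14.6%). In B cells this held for Stat3 (19.5% of all genes), in airway epithelium for Il6st (9%) and in mesothelial cells for Il6ra (15%). No member lay wholly below in old elsewhere, where the share of all genes was 13.1% in B cells, 6.76% in airway epithelium, 7.89% in ECs, 7.53% in FBs and 5.2% in mesothelial cells. In cluster 5, with 6.3% of all genes above and 10.3% below, and in cluster 17, with 12.6% and 24.8%, no member was apart. For Il6 in MΦs, below in old (8.23% of all genes), the log2 difference was -2.46 (SE 1.71, adjusted p = 0.698 by edgeR).

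Different clusters held these classes in young and old. Old FBs of 27 and 28 months were mostly in cluster 1 and young FBs in cluster 11. ECs of 27 and 28 months were mostly in cluster 6 and those of 20 months in cluster 8, and young and 24-month ECs mostly in cluster 10. Young and 24-month MΦs were mostly in cluster 24, those of 27 and 28 months in cluster 7 and those of 20 months in cluster 26. Within FB cluster 11, which every library holds, the difference of Osmr was 2.20 (SE 0.847, adjusted p = 0.996) and that of Il6st 1.42 (SE 0.657, 0.996). Within EC cluster 10 the difference of Il6st was 1.34 (SE 0.629, 0.982). Lifr in MΦs was not tested by age within a cluster. In MΦ cluster 24 it was 25.9 and 75.5 CPM in the young male and female and 47.8 CPM at 24 months, between them. In MΦ cluster 7 the young male, at 267 CPM on few UMIs, was the lowest of 4 libraries, which reached 710 CPM. Depth and age cannot be told apart here for the 27-month and 28-month libraries, which were the deepest and among the oldest.

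Other genes of the pathway were read from lists. Among the other ligands, cardiotrophin 1 (Ctf1) was highest in mesothelial cells (median 36.8 CPM, log2 difference 4.93, SE 0.398, adjusted p = 4.07e-15 by edgeR) and Ebi3, a subunit of IL-27 and IL-35, in monocytes or dendritic cells (40.3 CPM, 4.45, SE 0.408, 3.87e-14). Clcf1 had 15 UMIs and Cntf 0 UMIs over all types. Among the 4 other receptors, Il27ra was highest in T, NK or innate lymphoid cells (53.4 CPM, 4.42, SE 0.404, 2.05e-13), Cntfr in FBs (19.9 CPM) and Il31ra in ECs (62.3 CPM, 0.42, SE 0.337, 0.382), and Il11ra2 had 0 UMIs.

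Between types, 21.5% of all gene contrasts were called above and 16.4% below. For 9 kinases, adaptors and other STATs 20 of 81 contrasts were above and 18 below. Jak1 was highest in T cells, at a median of 539 CPM, and Jak2 in monocytes or dendritic cells, at 167. For 12 tested STAT3 target genes 37 of 108 contrasts were above and 27 below. Cebpb was highest in MΦs (531 CPM), Cebpd in FBs (403 CPM) and the acute phase gene Saa3 in MΦs (1803 CPM). The sheddases of receptors peaked in ECs for Adam10 (340 CPM) and in monocytes or dendritic cells for Adam17 (121 CPM).

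Old against young, no gene of any list passed the adjusted test in any type. Kinases, adaptors and other STATs were higher in old in 40 of 51 tests, with a median log2 difference of 0.38, and other feedback inhibitors in 17 of 23, with a median of 0.40. STAT3 target genes were higher in 25 of 68 tests, with a median of -0.29 and 11 tests at an unadjusted p under 0.05 (6.37% of all gene tests), and the dissociation genes in 42 of 115, with a median of -0.21. The median of all genes tested ran from 0.0175 to 0.291 by type. The lowest p of the target genes was Cebpb, with -2.13 in FBs (SE 0.506, adjusted p = 0.565 by edgeR) and -2.25 in MΦs (SE 0.589, 0.608). In the other lists the lowest p were those of Ctf1 in airway epithelium (-0.21, SE 0.362, adjusted p = 0.926) and mesothelial cells (-0.23, SE 0.629, 0.999), and of Il31ra in ECs (-1.62, SE 0.695, 0.833) and FBs (-1.49, SE 0.974, 0.823). Tyk2 had 1.85 in mesothelial cells (SE 0.855, adjusted p = 0.664 by edgeR), Ptpn11 2.57 in FBs (SE 1.12, 0.748), Socs7 1.5 in mesothelial cells (SE 0.734, 0.712) and Cish 2.79 in ECs (SE 1.39, 0.869). Adam10 had 1.52 in FBs (SE 0.767, adjusted p = 0.801 by edgeR) and 0.75 in B cells (SE 0.593, 0.851). Jun had 2.49 (SE 0.695, 0.544) and Egr1 2.03 (SE 0.672, 0.559) in B cells.

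Genes with patterns most like Il6st across 51 library-type profiles, among 3997 genes of at least 50 CPM on average, were Stox2 (Spearman rho 0.766), Wwc2 (0.76) and the Wnt receptor Fzd4 (0.739). For Lifr they included Itpripl2 (0.802) and the hyaluronan receptor Lyve1 (0.78). The profiles share libraries, depth and cell types, so these are descriptions.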

How the data were processed

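Proximal PAs of 2 young and 4 old mice were profiled by 10x single cell RNA sequencing, in 6 libraries. The submitters' processing notes name Cutadapt, STARsolo and the build GRCm38.p6. The authors deposited UMI counts that were not normalized, for each gene in each barcode. Another young library belonging to the study was not analysed here.

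Cells were barcodes with at least 500 UMIs, 300 genes and at most 20% mitochondrial UMIs. Scrublet marked 311 of 15622 barcodes (1.99%) as doublets, by its automatic threshold or, in 4 libraries, as the top scores up to the share expected from the number of barcodes, and these were removed. Cells were clustered in scanpy 1.11.5 (2000 variable genes, 40 components, 15 neighbours, leidenalg 0.10.2 at resolution 1.0, no batch correction), leaving out 66 genes of the family, its pathway and dissociation. A cluster was named where over 50% and at least 3 of a type's markers were over 2-fold higher, and this limit was chosen with the clusters known. A cluster of low depth for its libraries also needed a marker among its leading genes, and cluster 17 had 1.

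Counts were summed per library and type or cluster of at least 10 cells. Tests used edgeR 4.0.16 (TMM, quasi-likelihood F test with robust dispersions, p adjusted over all tested genes after Benjamini and Hochberg) in R 4.3.3, with the SE taken from the log2 difference and the F statistic. Old and young were compared in types with at least 2 libraries of each age, and T cells had only 1 young library. Types with at least 3 libraries were each compared with the mean of the others. In SMCs 2 of 4 and in monocytes or dendritic cells 1 of 2 clusters had more markers of another class among their leading genes, and the comparisons between types kept these classes whole. Neighbouring types were compared on log2(CPM + 1) with an exact two-sided sign-flip test in scipy 1.17.1. DESeq2 1.42.0 was an alternative. The scripts were tested on simulated counts. The labels give no animal numbers. The p-values of old against young and of neighbouring types measure the spread between libraries. Those of each type against the others measure the spread left over library-type profiles after type and library are fitted. Identifier versions of the files differed from the GENCODE M21 annotation used for positions, so genes were matched by symbol. The members and lists were chosen with earlier results of these data known. Named were the 10 members in every type, list genes past the threshold or else the 2 with the lowest p, and the 3 genes most like Il6st and Lifr, of which some results are not reported here. Values for the highest type of other list genes were named after being seen. Promoters were available for 9 of 10 members.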

Additional observations from a re-analysis of the deposited data

Results flagged for a closer look

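Among the 4 old libraries, 53 gene-type groups with at least 20 UMIs were screened for a library that stood apart (Dixon's gap test at 95%, on log2(CPM + 1)), and 7 were flagged. Chance flags about 1 in 20 groups of continuous, normally spread values. Where the remaining old libraries are all at 0, as for Lifr in T cells, any library with UMIs is flagged. The 7 of 53 thus cannot be set against that rate.

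The 20-month library stood apart in ECs for 3 genes. Il6st was 283 CPM there against a median of 632 in the old libraries, Lifr was 130 CPM against 284, and Il6 was 17.5 CPM against 0.179. The 29 Il6 UMIs behind that value came from 12 of 673 ECs, with up to 12 in a cell, and free RNA of the libraries reached 27.4 CPM. Most of its ECs were in cluster 8. The 24-month library was low for Il11ra1 in ECs (14.1 CPM against a median of 47.1, on 2 UMIs) and in MΦs (18.5 CPM against 42.6, on 3 UMIs). The 28-month library was low for Il6 in monocytes or dendritic cells, at 19.1 CPM against 132. It was the only old library with Lifr UMIs in T, NK or innate lymphoid cells, at 56 CPM from 27 UMIs against a median of 0, where free RNA of that library held 83.2 CPM.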

How the results depend on the processing

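The number of members called between old and young stayed at 0 under every alternative, namely a stricter limit on UMIs and genes, 10% mitochondrial UMIs, doublets kept, shared barcodes removed, resolution 2.0, cells thinned to 500 UMIs, DESeq2, no TMM, filterByExpr, no gene filter, a covariate for the barcode-sharing libraries, each library left out (0 to 0) and, chosen after seeing the data, both deepest libraries left out. These ran on 15 to 78 tests, since stricter filters or whole classes leave fewer types, and the covariate could not be fitted in cluster 17. Between types, 49 calls in the main fit became 35 with thinned cells, 42 without the library block, 39 without both deepest libraries and 42 to 52 with a library left out. Of 49 calls, 26 held under each of the 16 or 17 alternatives that gave a value for them. Resolution 2.0 gave no value for T cells. There a cluster of 314 cells, led by the T cell genes Ccl5, Nkg7 and Trbc2, was named erythroid by the marker rule. Of the 49 calls, 23 were lost under at least 1 alternative, and none of the 825 values changed sign. Calls lost in 5 or more were Il6st in SMCs (9) and airway epithelium (7), Lifr (8), Osm (8) and Il11ra1 (6) in airway epithelium, Socs3 in MΦs (8), Stat3 in B cells (6), and Osm in SMCs and Osmr in T cells (5 each). The cause was not tested. No paired analysis was possible because the age groups share no animal and their numbers follow accession order.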
